A study of Mus musculus with 12 samples.

Results

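Keap1, Nfe2l2 and 8 of their target genes were followed across all 12 liver libraries. The genes were chosen by name, as the count table writes them in capitals: the sensor KEAP1, NFE2L2, which encodes the transcription factor NRF2, and the targets NQO1, GCLC, GCLM, TXNRD1, SRXN1, HMOX1, OSGIN1 and EPHX1. All 10 symbols were found among the 56441 in the count table, and all 10 were among the 15228 genes with enough counts to be tested. Livers came from 2 models. C57BL/6 mice were fasted for 24 h, and ob/ob mice, which lack functional leptin and become obese, were kept on a high-fat diet (HFD). Mice of both models were 6 to 8 weeks old when an AAV8 virus was given by tail vein, 1 month before collection. The virus carried fumarate hydratase (AAV8-FH) or no such gene (AAV8-vector), so the controls were infected too. This gave 4 groups of 3 libraries: fasted vector, fasted FH, ob/ob vector and ob/ob FH. The labels give neither the promoter that drives FH nor the species of its sequence, and the models differ in strain genotype, diet and fasting at once.

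KEAP1 is an adaptor of the CUL3 ubiquitin ligase that holds NRF2 in the cytoplasm and has it degraded. Electrophiles and oxidants modify cysteines of KEAP1, and fumarate is one of the molecules known to do so. NRF2 then builds up, enters the nucleus, pairs with small MAF proteins and binds antioxidant response elements. It switches on genes of glutathione synthesis, quinone reduction, thioredoxin recycling and haem breakdown. FH turns fumarate into malate, which places it upstream of this sensor. NRF2 is controlled mostly through its protein, which these RNA data do not measure.

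The element that NRF2 and MAF bind has the core TGACNNNGC, where N is any base. It was searched on both strands in RefSeq promoter windows (build GRCm38.p6, 250 bases before to 50 bases after a start site). Windows were present for 8 members, 10 windows in all because Txnrd1 has several start sites. Gclc and Hmox1 had none. The core was found in 4 of the 10 member windows, and in 12.4% of the 32851 windows of all genes. The matches are shown so that the windows with and without these exact letters can be told apart. A window without them may still hold another form of the element. Capitals mark the core, and the letters run 5′ to 3′ along the gene's strand.
Nfe2l2, chr2:75704849-75704913, minus strand: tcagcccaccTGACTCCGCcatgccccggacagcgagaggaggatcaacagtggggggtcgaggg
Gclm, chr3:122245377-122245477, plus strand: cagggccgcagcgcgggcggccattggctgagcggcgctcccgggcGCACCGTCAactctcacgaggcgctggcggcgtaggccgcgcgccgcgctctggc
Txnrd1, chr10:82859068-82859168, plus strand: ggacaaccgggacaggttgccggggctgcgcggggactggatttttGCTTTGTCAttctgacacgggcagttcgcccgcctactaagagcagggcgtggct
Srxn1, chr2:152105542-152105570, plus strand: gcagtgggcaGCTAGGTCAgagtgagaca
In Gclm, Txnrd1 and Srxn1 the core reads on the opposite strand. It lies at -134 to -126 from the start site in Gclm, at -92 to -84 in Txnrd1, at -240 to -232 in Nfe2l2 and at 29 to 37 in Srxn1.

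The motif TGANTCA, the core bound by AP-1 factors and contained in some antioxidant response elements, was searched in the same windows. It is its own reverse complement and overlapped none of the 4 matches above. It stood in the windows of Srxn1 (2 matches) and Osgin1 (1 match) among the members, and in 7.81% of all windows. Capitals mark it here.
Srxn1, chr2:152105414-152105494, plus strand: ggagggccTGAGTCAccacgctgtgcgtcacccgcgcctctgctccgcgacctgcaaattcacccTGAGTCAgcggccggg
Osgin1, chr8:119437027-119437077, plus strand: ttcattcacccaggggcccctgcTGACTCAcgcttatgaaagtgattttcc
In Srxn1 the match nearer the start site is followed by gc, so it reads TGAGTCAGC. The Osgin1 match reads TGAGTCAGC on the opposite strand. These letters have G where the searched core TGACNNNGC has C, so that search could not find them. A match is a description of letters, and binding was not measured.

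Several features of the libraries touch the values that follow. The libraries held 12231828 to 14884323 counts with the vector and 19107050 to 25873379 with FH. Fh1, the mouse gene for FH, rose 2.55-fold with FH in the fasted and 5.57-fold in the ob/ob livers (edgeR adjusted p = 9.94e-05 and 1.79e-06). The labels give this direction, but counts of the animal's own gene and of the delivered one cannot be told apart. TMM scaling, used here, sets the typical gene near no change, with factors of 1.12 to 1.37 in vector and 0.721 to 0.907 in FH libraries. With library totals as the scale, the median log2 fold change over all genes shifted with FH by -0.67 in fasted and -0.62 in ob/ob livers. Between the vector groups it shifted by 0.21. Fh1 rose 1.61-fold in the fasted and 3.62-fold in the ob/ob livers on that scale (edgeR adjusted p = 0.00731 and 4.65e-06). The 3 ob/ob FH libraries held 0 counts of 4 Y-linked genes and 2242 to 4992 of Xist, against 2304 to 5181 and 1 to 24 in the other 9 libraries. Sex markers and FH therefore cannot be told apart in the ob/ob FH comparison or in the difference between models. The labels give both liver and hepatocyte. Of 7 hepatocyte markers, 7 rose with FH in fasted and 6 in ob/ob livers, or 4 and 3 on library totals, and no marker of Kupffer cells, endothelium, stellate cells or bile duct was at 0 in any group. Of all genes 27.4% and 25.8% rose, or 7.14% and 6.82% on library totals. In such bulk RNA, fewer cells of a type and less RNA per cell cannot be told apart.

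Other transcripts differed with FH, given here as CPM (counts scaled to a common library size) on library totals. Malat1, a long RNA retained in the nucleus, ranged over 511 to 687 CPM with the vector against 36.2 to 58.4 CPM with FH in fasted livers, and over 472 to 612 against 10.5 to 30.1 CPM in ob/ob livers. In the fasted livers the clock genes Dbp (2.69 to 6.64 CPM with the vector, 33.5 to 46.8 CPM with FH) and Arntl (20.4 to 25.8 and 1.27 to 2.77 CPM) lay apart in opposite directions. Their part in the members' values was not tested.

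The ob/ob vector group was not uniform. Replicate 2 held 448 CPM, again on library totals, of the male-biased enzyme gene Hsd3b5, against 0.0795 and 0 CPM in replicates 1 and 3. It had 0.564 CPM of the clock output gene Dbp, against 48.9 and 48.4 CPM. The same library stood apart from its group in Nqo1, Srxn1, Ephx1 and Osgin1.

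**Figure D1:**
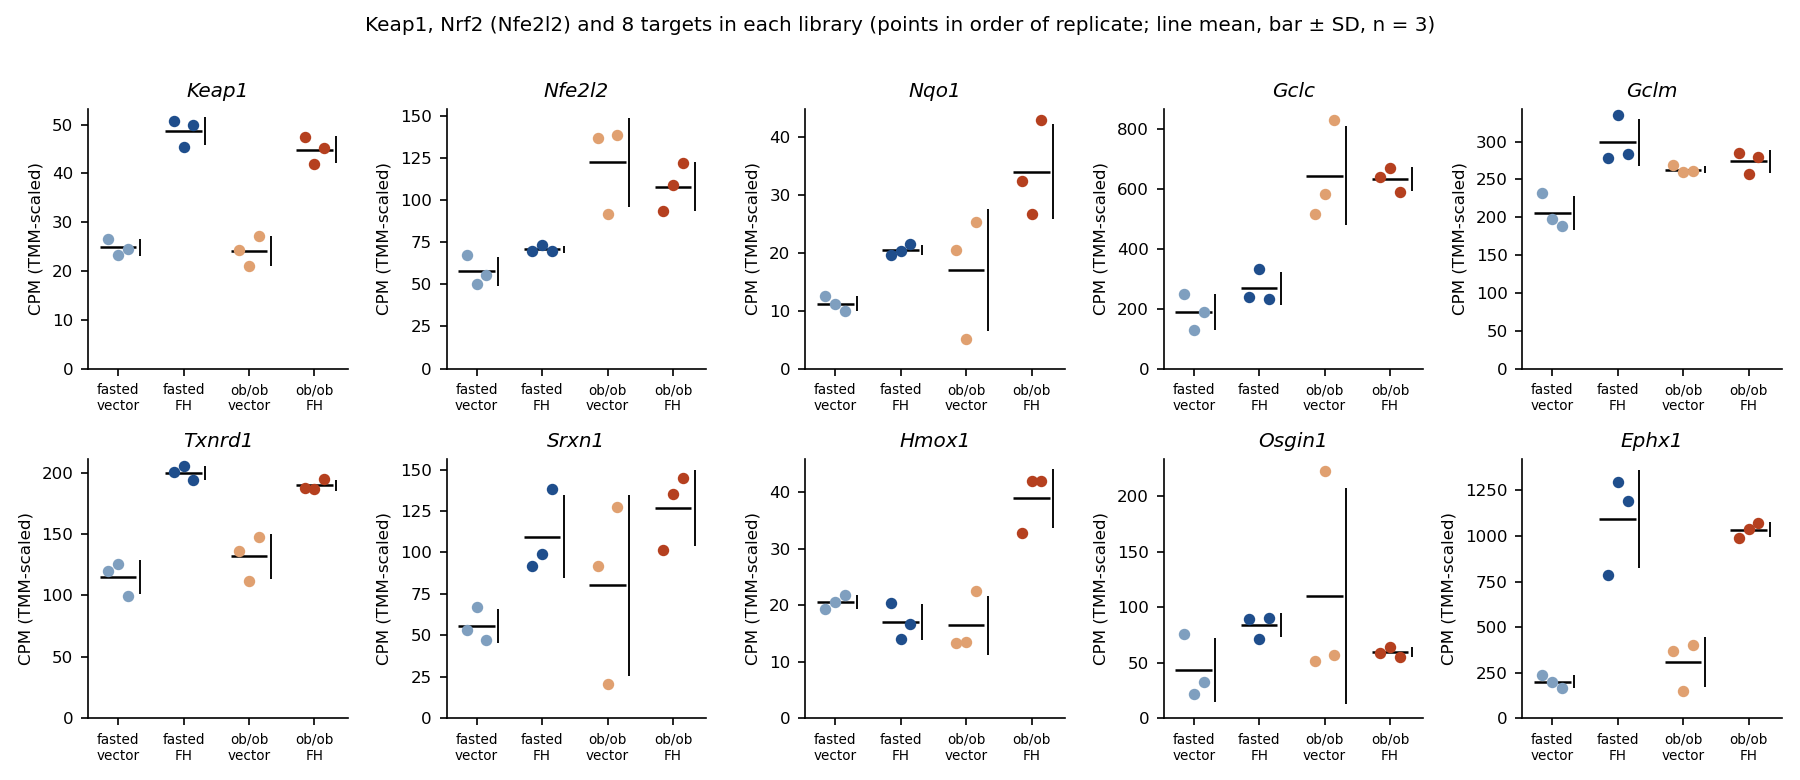
Level of each of the 10 genes in every library, in CPM on TMM-scaled totals (y axis), for the 4 groups (x axis); points are replicates 1 to 3 from left to right, the line is the mean and the bar is the SD. Keap1, Txnrd1 and Ephx1 separate FH from vector in both models, while ob/ob vector replicate 2 lies far below its group for Nqo1, Srxn1 and Ephx1 and far above it for Osgin1.

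With FH in the fasted livers 4 of the 10 genes rose and 0 fell: Keap1, Gclm, Txnrd1 and Ephx1. Among all genes tested 27.4% rose and 27.6% fell, so a count of 4 is not far from the background. The 0 falls were also 0 at an unadjusted p under 0.05 and by DESeq2, as they were for FH in ob/ob livers and between the vector groups. The median log2 fold change was 0.83 over the 10 genes and -0.04 over all genes. In 7 of the 10 (all but Gclc, Hmox1 and Osgin1) the FH libraries all lay above the vector libraries, which was true of 30.4% of all genes. On library totals 2 rose (Keap1 and Ephx1) and 1 fell (Hmox1), against 7.14% and 55.8% of all genes. There 3 members (Keap1, Nqo1 and Ephx1) separated upwards and 2 (Nfe2l2 and Hmox1) downwards, against 9.4% and 57.4%.

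With FH in the ob/ob livers 5 of the 10 rose and 0 fell: Keap1, Nqo1, Txnrd1, Hmox1 and Ephx1. The background was 25.8% higher and 27.9% lower, and the medians were 0.59 for the members and -0.01 for all genes. In 5 of the 10 the FH libraries all lay above the vector libraries, as in 30.6% of all genes. On library totals 2 rose (Hmox1 and Ephx1) and 4 fell (Nfe2l2, Gclc, Gclm and Osgin1), against 6.82% and 53.3%. There 2 members (Keap1 and Ephx1) separated upwards and 4 (Nfe2l2, Gclc, Gclm and Osgin1) downwards, against 9% and 56.3%. Both FH comparisons have their own vector libraries.

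**Figure D2:**
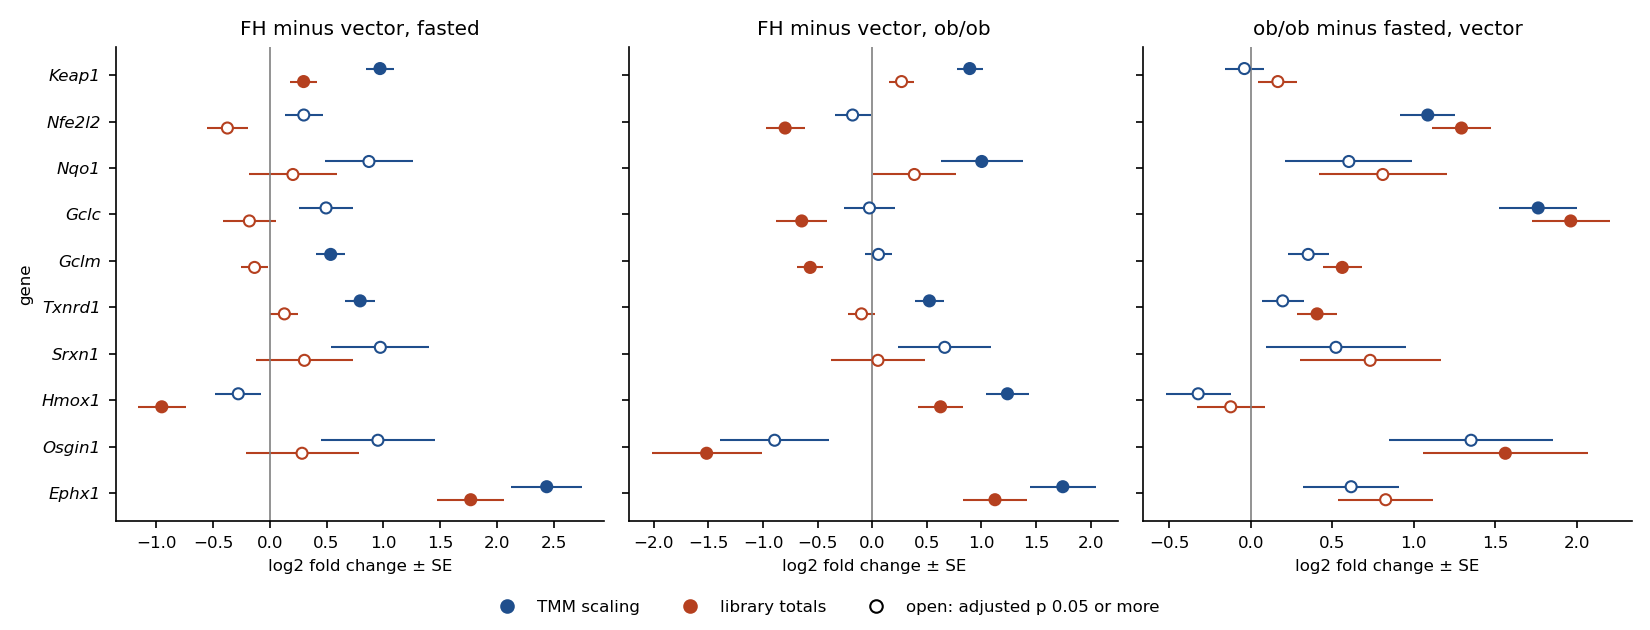
Log2 fold change with its SE (x axis) for each gene (y axis) in the 2 FH comparisons and between the vector groups, with TMM scaling in blue and library totals in red; filled points passed the adjusted p threshold of 0.05. Under library totals the FH values move left, and those of Nfe2l2, Gclc and Gclm in fasted livers and of Gclm and Txnrd1 in ob/ob livers change sign.

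Keap1, the sensor, stood at 26.6, 23.3 and 24.6 CPM in the fasted vector libraries and at 50.8, 45.4 and 49.99 CPM with FH. The ob/ob vector libraries had 24.3, 21.04 and 27.1 CPM and the ob/ob FH libraries 47.6, 42.0 and 45.2 CPM. All 6 FH libraries were above all 6 vector libraries. The rise was 1.96-fold in the fasted livers (log2 0.97, SE 0.12, edgeR adjusted p = 2.32e-05) and 1.86-fold in the ob/ob livers (log2 0.89, SE 0.12, adjusted p = 4.15e-05). On library totals it was 0.30 (adjusted p = 0.0425) and 0.27 (adjusted p = 0.0650) on the log2 scale, so the ob/ob call rests on the scaling. Between the vector groups Keap1 stood at -0.04 (adjusted p = 0.872) and its FH effect differed by -0.08 between models (SE 0.17, adjusted p = 0.821).

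Nfe2l2, which encodes NRF2, had 67.3, 50.2 and 55.7 CPM in fasted vector, 69.99, 73.5 and 69.8 CPM in fasted FH, 137, 91.9 and 139 CPM in ob/ob vector and 93.4, 109 and 122 CPM in ob/ob FH libraries. The 6 ob/ob libraries were all above the 6 fasted ones, and the 3 fasted FH libraries lay just above the 3 fasted vector ones on this scale and below them on library totals. Comparing vector livers, Nfe2l2 was 2.12-fold higher in ob/ob livers (log2 1.09, SE 0.17, edgeR adjusted p = 8.49e-04), and 2.45-fold on library totals (adjusted p = 3.46e-04). FH against vector gave 0.30 in the fasted livers (SE 0.17, adjusted p = 0.143) and -0.18 in the ob/ob livers (SE 0.17, adjusted p = 0.375). On library totals these were -0.37 (adjusted p = 0.0828) and -0.80 (adjusted p = 0.00164).

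The ratio of Nfe2l2 to Keap1 counts within a library does not depend on the scaling. It was 2.52, 2.15 and 2.27 in fasted vector and 1.38, 1.62 and 1.40 in fasted FH libraries. In ob/ob vector libraries it was 5.64, 4.37 and 5.11, and in ob/ob FH libraries it was 1.96, 2.60 and 2.701. FH and vector did not overlap in either model. The ratio was 1.58-fold lower with FH in the fasted livers and 2.09-fold lower in the ob/ob livers, and 2.17-fold higher in ob/ob than in fasted vector libraries. Each of these 3 differences had p = 0.10 in a two-sided exact permutation test, which is the smallest that 3 against 3 libraries allow (0.15 after Benjamini-Hochberg adjustment over 6 ratio tests).

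**Figure D3:**
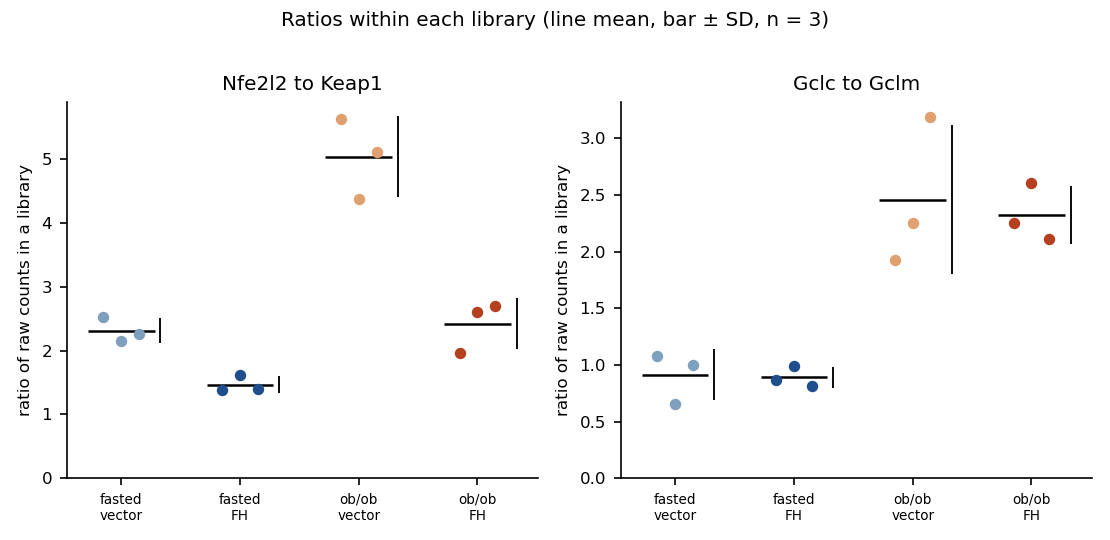
Ratio of raw counts in each library (y axis) for Nfe2l2 to Keap1 and for Gclc to Gclm in the 4 groups (x axis); points are replicates 1 to 3, the line is the mean and the bar is the SD. The Nfe2l2 to Keap1 ratio is 4.37 to 5.64 in ob/ob vector libraries and 1.38 to 1.62 in fasted FH libraries, and the Gclc to Gclm ratio separates the models but not FH from vector.

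Gclc and Gclm encode the catalytic and the modifier subunit of glutamate-cysteine ligase, the first step of glutathione synthesis. Gclc stood at 250, 130 and 189 CPM in fasted vector, 240, 331 and 232 CPM in fasted FH, 518, 585 and 832 CPM in ob/ob vector and 640, 669 and 592 CPM in ob/ob FH libraries. The models did not overlap, and the virus groups within each model did. Gclc was 3.40-fold higher in ob/ob than in fasted vector livers (log2 1.76, SE 0.24, edgeR adjusted p = 3.42e-04), and it ranged from 1.54 to 2.02 on the log2 scale as single libraries were left out. With FH it stood at 0.50 in the fasted livers (adjusted p = 0.0881), a value that passed without fasted vector replicate 1 (0.69, adjusted p = 0.0266). With FH in the ob/ob livers Gclc stood at -0.03 (adjusted p = 0.934), and at -0.65 on library totals (adjusted p = 0.0274).

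Gclm moved in another pattern. It had 231, 198 and 189 CPM in fasted vector, 278, 335 and 284 CPM in fasted FH, 269, 260 and 261 CPM in ob/ob vector and 285, 257 and 280 CPM in ob/ob FH libraries. It rose 1.45-fold with FH in the fasted livers (log2 0.54, SE 0.13, edgeR adjusted p = 0.00272), where all FH libraries were above all vector libraries, while library totals gave -0.13 (adjusted p = 0.343). The ob/ob value was 0.06 (adjusted p = 0.725), and library totals gave -0.57 (adjusted p = 0.00114). The difference of the FH effects, -0.48, did not pass (SE 0.18, adjusted p = 0.110). For the vector groups Gclm was at 0.35 (adjusted p = 0.0695), and it passed without fasted vector replicate 1 (0.45, adjusted p = 0.0398).

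The balance of the 2 subunits differed between the models. Counts of Gclc per count of Gclm were 1.08, 0.659 and 1.00 in fasted vector and 0.864, 0.989 and 0.816 in fasted FH libraries. They were 1.93, 2.25 and 3.19 in ob/ob vector and 2.25, 2.60 and 2.11 in ob/ob FH libraries. The ratio was 2.69-fold higher in ob/ob than in fasted vector livers (two-sided exact permutation p = 0.10, the smallest possible, n = 3 and 3). FH and vector libraries overlapped in both models (exact permutation p = 0.90 in fasted and 0.80 in ob/ob livers).

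Nqo1 and Srxn1 encode a quinone reductase and sulfiredoxin, which repairs over-oxidised peroxiredoxins. Nqo1 was at 12.5, 11.1 and 9.89 CPM in fasted vector, 19.7, 20.4 and 21.4 CPM in fasted FH, 20.5, 5.09 and 25.4 CPM in ob/ob vector and 32.5, 26.7 and 42.9 CPM in ob/ob FH libraries. FH libraries were above vector libraries in both models. Nqo1 rose 2.00-fold with FH in the ob/ob livers (log2 1.00, SE 0.38, edgeR adjusted p = 0.0376). The call did not hold when ob/ob FH replicate 1 was left out (1.02, adjusted p = 0.0685) or replicate 3 was (0.78, 0.145). It was also lost on library totals (0.39, 0.399) and when the ob/ob libraries were fitted alone (0.94, 0.137). Without ob/ob vector replicate 2 the rise was 0.58 on the log2 scale (adjusted p = 0.0145).

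In the fasted livers Nqo1 stood at 0.87 (SE 0.39, adjusted p = 0.0719) in the joint fit of 4 groups. Fitted on the 6 fasted libraries alone it was 0.83 (adjusted p = 5.46e-04), and without ob/ob vector replicate 2 in the joint fit it was 0.89 (adjusted p = 3.81e-04). Without ob/ob vector replicate 3 it passed as well (0.89, adjusted p = 0.0426). On library totals it was 0.20 (adjusted p = 0.666).

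Srxn1 had 53.2, 67.1 and 47.0 CPM in fasted vector, 91.8, 98.8 and 138 CPM in fasted FH, 92.1, 20.8 and 127 CPM in ob/ob vector and 101, 135 and 145 CPM in ob/ob FH libraries. The fasted groups were separate on this scale and overlapped on library totals. The ob/ob groups overlapped on both scales. In the fasted livers it stood at 0.97 (SE 0.43, edgeR adjusted p = 0.0705), and passed without ob/ob vector replicate 2 (0.99, adjusted p = 4.24e-04) or replicate 3 (0.99, 0.0385). The fit of the 6 fasted libraries alone gave 0.93 (adjusted p = 7.13e-04). Its ob/ob value was 0.66 (adjusted p = 0.206), or 0.22 without vector replicate 2 (adjusted p = 0.395), and passed without vector replicate 3 (1.19, adjusted p = 0.0338). With the ob/ob libraries fitted alone it was 0.61 (adjusted p = 0.368). On library totals Srxn1 stood at 0.30 in the fasted (adjusted p = 0.554) and 0.05 in the ob/ob livers (adjusted p = 0.925).

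Counted without ob/ob vector replicate 2, 7 of the 10 genes rose with FH in the fasted livers, Nqo1, Srxn1 and Osgin1 being added, against 28.8% of all genes in that fit. In the ob/ob livers 5 of 10 rose, against 24.3%.

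Comparing ob/ob with fasted vector livers, 2 of the 10 were higher (Nfe2l2 and Gclc) and 0 lower. The background was 9.36% higher and 8.18% lower, and the members' median was 0.56 against -0.00 for all genes. On library totals 5 of the 10 were higher and 0 lower, against 18% and 4.21% of all genes. In 3 of the 10 (Nfe2l2, Gclc and Gclm) all ob/ob vector libraries were above all fasted vector libraries, as in 14.8% of all genes, and on library totals in 4 (Txnrd1 too), as in 26.3%. Nqo1 was 1.52-fold (edgeR adjusted p = 0.320), Srxn1 1.44-fold (0.450) and Ephx1 1.53-fold (0.174) higher in ob/ob vector livers. Leaving out ob/ob vector replicate 2 gave 2.06-fold (adjusted p = 8.11e-04), 1.97-fold (0.00316) and 1.93-fold (0.00276), and 5 of the 10 were then higher, against 11.7% of all genes. Leaving out ob/ob vector replicate 3 gave 1.14-fold (0.811), 1.01-fold (0.986) and 1.29-fold (0.489). In that fit 3 were higher (Nfe2l2, Gclc and Osgin1), against 5.8%, and Hmox1 was lower by 0.61 on the log2 scale (adjusted p = 0.0366), against 5.28%. With fasted vector replicate 1 left out 4 were higher (Nfe2l2, Gclc, Gclm and Osgin1), against 7.47%.

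Txnrd1, the cytosolic thioredoxin reductase, rose with FH in both models. Its libraries read 120, 126 and 99.9 CPM in fasted vector and 200, 205 and 194 CPM in fasted FH. The ob/ob libraries read 136, 112 and 148 CPM with the vector and 187, 187 and 195 CPM with FH. All 6 FH libraries were above all 6 vector libraries. The rise was 1.74-fold in the fasted livers (log2 0.80, SE 0.13, edgeR adjusted p = 2.03e-04) and 1.44-fold in the ob/ob livers (log2 0.52, SE 0.13, adjusted p = 0.00402). On library totals the values were 0.13 (adjusted p = 0.379) and -0.10 (adjusted p = 0.508), so neither call and, in the ob/ob livers, not the sign held under that scaling.

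Ephx1, the microsomal epoxide hydrolase, had the largest FH effect of the 10 in both models. It went from 238, 199 and 167 CPM to 786, 1295 and 1194 CPM in the fasted livers. The ob/ob vector libraries held 369, 151 and 405 CPM and the ob/ob FH libraries 992, 1040 and 1071 CPM. Every FH library was above every vector library. The rise was 5.42-fold in the fasted (log2 2.44, SE 0.31, edgeR adjusted p = 3.03e-05) and 3.35-fold in the ob/ob livers (log2 1.74, SE 0.30, adjusted p = 3.30e-04). Without ob/ob vector replicate 2 the ob/ob rise was 1.43 on the log2 scale (adjusted p = 5.73e-05). On library totals it was 3.41-fold (adjusted p = 2.11e-04) and 2.18-fold (adjusted p = 0.00465), so Ephx1 is the 1 member called higher in both models under either scaling. The fasted value exceeded that of 99.7% of all genes tested and the ob/ob value that of 98.7%. The difference of the effects, -0.69, did not pass (SE 0.42, adjusted p = 0.334), though it did without ob/ob vector replicate 2 (-1.02, adjusted p = 0.0243).

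Hmox1, the inducible haem oxygenase that breaks down haem, was the single member whose FH effect was called different between the models by edgeR. It had 19.3, 20.6 and 21.9 CPM in fasted vector and 20.4, 14.04 and 16.7 CPM in fasted FH libraries. Among ob/ob livers it had 13.3, 13.6 and 22.5 CPM with the vector and 32.9, 42.0 and 42.0 CPM with FH. The ob/ob FH libraries were above all 9 others, and the fasted groups overlapped. On library totals ob/ob FH replicate 1 (27.1 CPM) was below ob/ob vector replicate 3 (29.7 CPM). Hmox1 rose 2.36-fold with FH in the ob/ob livers (log2 1.24, SE 0.20, edgeR adjusted p = 1.80e-04) and stood at -0.28 in the fasted livers (SE 0.20, adjusted p = 0.255). On library totals it rose by 0.63 (adjusted p = 0.0183) and fell by 0.95 (adjusted p = 0.00165), respectively. The difference was 1.52 (SE 0.28, adjusted p = 0.00733). It passed in every fit that left out 1 of the 12 libraries (1.38 to 1.81, adjusted p at most 0.0252) and on library totals (1.58, adjusted p = 0.00881). In that comparison 4.77% of all genes were called higher and 3.66% lower, against 1 and 0 of the 10. The 0 lower became 2 at an unadjusted p under 0.05 (Gclm and Osgin1) and 1 by DESeq2. Without fasted vector replicate 1, Osgin1 was called lower as well (-2.48, adjusted p = 0.0441, against 2.1% of all genes). Without ob/ob vector replicate 2, Nfe2l2 (-0.65, 0.0444) and Ephx1 were called lower, against 4.84%.

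Hmox1 is also expressed by Kupffer cells, the resident macrophages of liver, which take up aged red cells. Of 12 Kupffer cell and macrophage markers 10 fell with FH in the fasted livers, 10 rose in the ob/ob livers, and 10 had a higher FH effect in the ob/ob livers. The fasted count was 3 when fasted vector replicate 2 was left out and 6 when fasted FH replicate 1 was, and on library totals 4 rose in the ob/ob livers. Among all genes 27.6% fell in the fasted livers, and 25.8% rose and 27.9% fell in the ob/ob livers. A higher FH effect in the ob/ob livers was called for 4.77%, and 6.82% rose there on library totals. None of the 12 markers was at 0 in any group. Their summed level was 360 to 628 CPM in fasted vector, 248 to 268 CPM in fasted FH, 264 to 447 CPM in ob/ob vector and 659 to 915 CPM in ob/ob FH libraries. Counts of Hmox1 per 100 counts of these markers were 5.06, 3.44 and 5.04 in ob/ob vector and 4.99, 4.59 and 5.32 in ob/ob FH libraries, which overlap. In the fasted livers they were 5.38, 3.28 and 4.82 with the vector and 8.23, 5.24 and 6.36 with FH, which overlap too. Of 9 markers of the sinusoidal endothelium, 9 fell in the fasted livers, and 5 rose and 1 fell in the ob/ob livers. The ob/ob counts were 3 and 4 on library totals, against 6.82% and 53.3% of all genes. The 5 became 3 without ob/ob FH replicate 3. The 1 became 0 when any ob/ob vector library or ob/ob FH replicate 1 was left out. The FH effect was called higher in the ob/ob livers for 9 of the 9 endothelial markers and 5 of 8 stellate cell markers. The same held for 3 of 6 neutrophil and lymphocyte, 0 of 7 hepatocyte and 0 of 5 bile duct markers. The stellate count was 2 without ob/ob FH replicate 2, and the bile duct count 1 without ob/ob vector replicate 2. The part of these cells in the Hmox1 result was not tested. The ratios of Hmox1 to macrophage markers are a description and were chosen after values were seen.

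**Figure D4:**
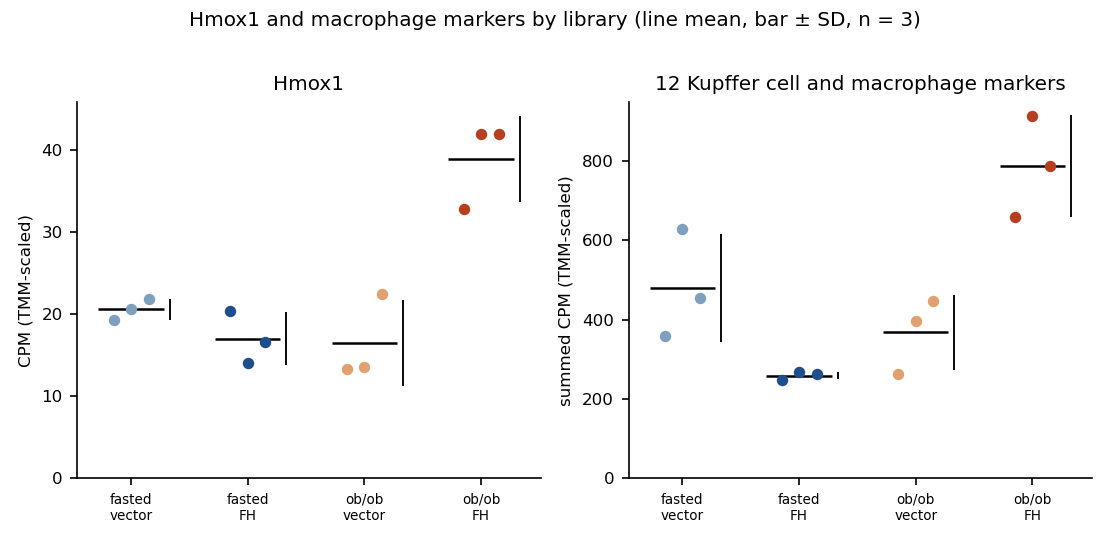
Hmox1 (left) and the sum of 12 Kupffer cell and macrophage markers (right) in each library, in CPM on TMM-scaled totals (y axes), for the 4 groups (x axis); points are replicates 1 to 3, the line is the mean and the bar is the SD. In both panels the 3 ob/ob FH libraries are the highest, at 32.9 to 42.0 CPM and at 659 to 915 CPM.

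Osgin1, a stress-induced growth inhibitor, had 75.7, 22.0 and 32.2 CPM in fasted vector, 89.6, 71.3 and 90.3 CPM in fasted FH, 51.8, 223 and 56.7 CPM in ob/ob vector and 58.9, 64.3 and 55.2 CPM in ob/ob FH libraries. Fasted vector replicate 1 and ob/ob vector replicate 2 were high for their groups, and FH and vector overlapped in both models. It stood at 0.95 with FH in the fasted livers (SE 0.50, edgeR adjusted p = 0.121) and passed without fasted vector replicate 1 (1.58, adjusted p = 0.0211) or ob/ob vector replicate 2 (0.97, 0.0111). With FH in the ob/ob livers Osgin1 was at -0.89 (adjusted p = 0.143), at 0.15 without vector replicate 2 (adjusted p = 0.736) and at -1.52 on library totals (adjusted p = 0.0186). The FH effects differed by -1.85 (adjusted p = 0.121), and ob/ob and fasted vector livers by 1.35 (adjusted p = 0.0817), or by 0.33 without ob/ob vector replicate 2 (adjusted p = 0.528).

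Levels can be set side by side only per length. Per kilobase of exon (all exons of a gene joined, GENCODE M21), the fasted vector means ran from 103 CPM per kb for Ephx1, 50.4 for Gclc and 32.8 for Gclm to 7.20 for Nqo1 and 5.29 for Keap1. In the ob/ob vector group Gclc was first, at 171 CPM per kb, with Ephx1 at 158. Genes that overlap members in that annotation held at most 28 counts in any library (Gm38560, on the strand opposite to Txnrd1), where the table lists them.

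The genes around KEAP1 and NRF2 moved in both directions. Of 19 genes for partners and regulators of NRF2, 9 rose and 4 fell with FH in the fasted livers (median 0.36), and 6 rose and 4 fell in the ob/ob livers (median -0.03). The 4 falls in fasted livers became 1 when fasted vector or fasted FH replicate 3 was left out and 2 when fasted FH replicate 2 was. The 4 in ob/ob livers became 2 when replicate 1 of either ob/ob group, or ob/ob FH replicate 3, was left out. On library totals 2 rose and 8 fell in the fasted, and 2 rose and 9 fell in the ob/ob livers. The shares of all genes, for this list and those below, were 27.4% higher and 27.6% lower in fasted livers. In ob/ob livers they were 25.8% and 27.9%, and for the difference of the effects 4.77% and 3.66%. On library totals the shares were 7.14% and 55.8% in fasted and 6.82% and 53.3% in ob/ob livers. Sqstm1, whose protein p62 captures KEAP1, rose by 1.03 and 1.202 on the log2 scale (edgeR adjusted p = 1.70e-04 and 5.54e-05). Dpp3, which competes with NRF2 for KEAP1, rose by 0.76 in the fasted and 0.96 in the ob/ob livers (adjusted p = 3.44e-04 and 6.08e-05). On library totals Dpp3 stood at 0.10 and 0.34 (adjusted p = 0.527 and 0.0328). Mafg, a small MAF partner, fell by 0.60 in the fasted and 0.87 in the ob/ob livers (adjusted p = 0.00214 and 1.51e-04).

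In 3 of these 19 genes the FH effect was lower in the ob/ob than in the fasted livers, against 3.66% of all genes. Bach1, a repressor that competes with NRF2 at Hmox1 and other targets, went from 59.6 ± 5.31 to 87.7 ± 16.6 CPM (SD, n = 3) in the fasted livers and from 37.1 ± 3.55 to 25.9 ± 2.06 CPM in the ob/ob livers. Its FH effects differed by -1.07 (SE 0.20, edgeR adjusted p = 0.00733). On library totals its fasted value was -0.12 (adjusted p = 0.520) and the difference -1.02 (adjusted p = 0.0176). Maff, another small MAF, rose by 1.85 in the fasted livers (adjusted p = 1.33e-04) and its effects differed by -1.90 (adjusted p = 0.0133). Cul3, the scaffold of the ligase that KEAP1 serves, differed by -0.75 (adjusted p = 0.0236). Comparing the vector groups by edgeR, 0 of the 19 were higher (0 at an unadjusted p under 0.05 and by DESeq2, 1 without ob/ob vector replicate 2) and 4 lower in ob/ob livers, among them Mafg (-0.73, adjusted p = 0.00267), Bach1 (-0.68, 0.00522) and Syvn1 (-1.17, 0.00522). The shares of all genes between the vector groups were 9.36% higher and 8.18% lower.

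Of 17 listed genes of glutathione supply and recycling 14 were tested; Slc7a11, Ggt1 and Gpx2 had too few counts. With FH 8 rose and 0 fell in the fasted livers (median 0.87) and 6 rose and 1 fell in the ob/ob livers (median 0.38), and on library totals 5 rose and 6 fell, and 2 rose and 4 fell. Chac2, a glutathione-degrading enzyme, stood at -0.60 in the fasted livers (edgeR adjusted p = 0.0598), the 1 listed gene lower at an unadjusted p under 0.05 and the 1 called lower by DESeq2. It was chosen after its values were seen, and it was called lower when fasted vector replicate 2, ob/ob vector replicate 2 or 3, or ob/ob FH replicate 1 or 3 was left out. The ob/ob falls became 2 when any of the 3 fasted vector libraries or ob/ob vector replicate 2 was left out. Slc3a2, the heavy chain of the cystine carrier, rose by 1.19 and 1.27 (edgeR adjusted p = 3.15e-05 and 1.80e-05). Gsr, glutathione reductase, rose by 0.99 in the fasted and 0.36 in the ob/ob livers (adjusted p = 4.06e-05 and 0.0316). On library totals Gsr stood at 0.32 in the fasted and -0.27 in the ob/ob livers (adjusted p = 0.0344 and 0.0691). Of 17 genes of thioredoxin, peroxiredoxin and peroxide removal 11 rose and 0 fell in each model, with medians of 0.76 and 0.57 (falls were 0 also at an unadjusted p under 0.05 and by DESeq2), and on library totals 4 rose and 3 fell, and 2 rose and 4 fell. The shares of all genes, as above, were 27.4% and 27.6% in fasted and 25.8% and 27.9% in ob/ob livers. Prdx6, a peroxiredoxin, rose by 1.02 and 0.96 (adjusted p = 6.04e-05 and 9.75e-05), and Sod2, the mitochondrial superoxide dismutase, rose by 1.14 in the fasted livers (adjusted p = 1.25e-05).

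Genes of NADPH supply, which feeds both systems, rose with FH in 6 of 9 cases and fell in 1 in each model (medians 1.02 and 1.04). On library totals 3 rose and 1 fell, and 5 rose and 1 fell, and the ob/ob fall was lost when vector replicate 2 or FH replicate 3 of that model was left out. G6pdx, glucose-6-phosphate dehydrogenase, moved in opposite directions. It went from 4.37 ± 0.655 to 2.05 ± 0.475 CPM in the fasted and from 4.09 ± 0.368 to 10.6 ± 1.47 CPM in the ob/ob livers (SD, n = 3). It fell by 1.09 (edgeR adjusted p = 0.00100) and rose by 1.36 (adjusted p = 9.27e-05) on the log2 scale, and the effects differed by 2.46 (SE 0.30, adjusted p = 0.00110). In ob/ob vector livers 6 of the 9 were higher and 0 lower than in fasted ones (median 1.18, with 0 lower also at an unadjusted p under 0.05 and by DESeq2), with Tkt, transketolase, at 1.92, Me1, malic enzyme, at 2.36 and Idh1 at 0.94 (adjusted p = 2.58e-04, 5.36e-04 and 0.00101). Of all genes 9.36% were higher and 8.18% lower in this comparison.

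Among 31 other quinone, aldehyde and conjugation enzymes 16 rose and 2 fell with FH in the fasted livers and 16 rose and 1 fell in the ob/ob livers (medians 0.72 and 0.47). On library totals 8 rose and 6 fell in each. The fasted falls became 1 when fasted vector replicate 3 or fasted FH replicate 1 or 2 was left out. The carboxylesterase genes Ces1g and Ces2g rose by 2.56 and 2.09 in the fasted livers (edgeR adjusted p = 1.26e-06 and 1.62e-06) and by 1.84 and 1.59 in the ob/ob livers (adjusted p = 2.54e-06 and 3.58e-06). Cyp2a5, which hydroxylates coumarin, rose by 3.19 in the fasted livers (adjusted p = 9.08e-06), and its FH effect was lower by 1.86 in the ob/ob livers (adjusted p = 0.0238). It was the 1 gene of the list called for the difference, where 4.77% of all genes were called higher and 3.66% lower. The lower calls were 6 without ob/ob vector replicate 2, 2 without ob/ob vector replicate 3 or fasted FH replicate 1, and 0 without fasted vector 2 or 3, fasted FH 2 or 3, ob/ob vector 1 or ob/ob FH 2. Higher calls were 1 and 2 without ob/ob vector replicate 2 and 3. In ob/ob vector livers 16 of the 31 were higher and 0 lower than in fasted ones by edgeR (1 lower at an unadjusted p under 0.05, by DESeq2, and without ob/ob vector replicate 2; median 0.74), Gstm3 by 4.66 (adjusted p = 7.31e-05). Of all genes 9.36% were higher and 8.18% lower between these groups. Glutathione transferases and carboxylesterases have near-identical relatives, so the split of reads among them is uncertain.

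Of 10 genes of haem and iron handling 5 rose and 0 fell with FH in each model (medians 0.58 and 0.36). The falls were 0 also at an unadjusted p under 0.05 and by DESeq2, and 1 in fasted livers without fasted FH replicate 2. On library totals 3 rose and 3 fell, and 2 rose and 4 fell. The ferritin genes Ftl1 and Fth1, which store the iron that haem breakdown frees, rose by 1.42 and 1.39 in the fasted livers (edgeR adjusted p = 2.46e-05 and 9.06e-05). Ftl1 rose by 1.15 in the ob/ob livers (adjusted p = 1.15e-04). The FH effect differed between models for 0 of these 10 genes by edgeR (1 at an unadjusted p under 0.05, by DESeq2, and without ob/ob vector replicate 2). Hmox2, the constitutive haem oxygenase, was lower by 0.92 in ob/ob than in fasted vector livers (adjusted p = 2.59e-04).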

How the data were processed

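RNA of 12 mouse liver libraries was measured as counts per gene. The deposited counts are whole numbers per gene symbol, in capitals, and were used as given. Per the submitters' processing notes, STAR 2.7.11a and the mouse build GRCm39 were used. How reads were counted, on which annotation and strand, was not given in the sources used here, so overlapping genes may share reads. Groups and replicate numbers came from the labels, and columns were matched to samples by name. The 10 genes and all gene lists were chosen with earlier results of these data known.

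Counts were modelled with edgeR 4.0.16 in R 4.3.3 (quasi-likelihood F test, TMM scaling), all 12 libraries in 1 fit of 4 groups with 8 residual degrees of freedom. Of the 56441 genes deposited, 15228 passed filterByExpr (10 counts, 15 in total) and were tested. Adjusted p is Benjamini-Hochberg over these genes, called under 0.05. No replicate block was used. Alternatives were DESeq2 1.42.0, DESeq2's size factors, library totals, no filter, the compared groups alone, a replicate block, and each library left out in turn. List counts under these alternatives were added after values were seen. The steps were tested on simulated data.

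Named genes are the 10 members in all comparisons, the delivered Fh1, up to 3 called genes of each fixed list with the smallest adjusted p, and the 3 genes whose log2(CPM + 0.5) correlates best over 12 libraries with Keap1, Nfe2l2 and Nqo1. The ratios between members and the ratio of Hmox1 to macrophage markers were chosen after values were seen. Promoter stretches are from RefSeq (GRCm38.p6), matched by symbol. Exon lengths and overlapping genes are from GENCODE M21 (GRCm38), and the deposited table holds no coordinates. CPM without a named scale is on TMM-scaled totals. Depth limits precision. The labels do not say whether each library is its own mouse, so the spread behind the p-values may be technical.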

Additional observations from a re-analysis of the deposited data

Results flagged for a closer look

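Hmox1 had a different FH effect in the 2 models. Its log2 fold change with FH was 1.52 higher in the ob/ob than in the fasted livers (SE 0.28, edgeR adjusted p = 0.00733). On TMM-scaled totals all 3 ob/ob FH libraries were above all 3 ob/ob vector libraries, and on library totals the groups overlapped. Markers of Kupffer cells and macrophages, of the endothelium and of stellate cells differ along with it, as do sex markers. Their part in the difference was not tested.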

How the results depend on the processing

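Of the 10 genes, 4, 5, 1 and 2 were called for FH in fasted livers, FH in ob/ob livers, the difference of these effects and the vector groups. With no filter on low counts the counts were 8, 7, 2 and 6. All genes called were then 8774, 8862, 1849 and 3174 of the 28566 with any count. In the main fit they were 8382, 8177, 1283 and 2671 of 15228. On library totals the members called were 3, 6, 1 and 5, with DESeq2 4, 5, 2 and 3, and with DESeq2's size factors 4, 5, 1 and 2. All genes called were 9583, 9158, 1083 and 3378 on library totals. They were 8275, 8145, 1696 and 2990 with DESeq2, and 8293, 8146, 1165 and 2689 with its size factors. With only the compared groups fitted the members called were 7 in fasted and 4 in ob/ob livers and 2 between the vector groups. All genes called were then 7923, 7514 and 1244, in place of 8382, 8177 and 2671. The fit for the difference needs all groups and was not run. With single libraries left out the members called ran from 4 to 7, 4 to 6, 1 to 3 and 2 to 5, and all genes called from 7214 to 9235, 7007 to 8613, 582 to 1650 (fewest without ob/ob FH replicate 2) and 1669 to 3418 (fewest without fasted vector replicate 3). All genes called for FH in fasted livers split into 1087 higher and 8496 lower on library totals against 4174 and 4208, in ob/ob livers into 1039 and 8119 against 3932 and 4245, and between the vector groups into 2737 and 641 against 1426 and 1245. The cause was not tested.

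Called values turned sign only on library totals (Gclm in fasted and Txnrd1 in ob/ob livers). On library totals Nfe2l2 (-0.37), Gclc (-0.18) and Gclm (-0.13) turned in fasted livers, Gclm (-0.57) and Txnrd1 (-0.10) in ob/ob livers, and Keap1 (0.17) between the vector groups. Gclm was at -0.00596 in the ob/ob livers fitted alone. With 1 library left out, Gclc (-0.15 to 0.22) and Osgin1 (-1.22 to 0.15) turned in ob/ob livers, Keap1 (-0.17 to 0.013), Nqo1 (-0.31 to 0.54, or -0.029 without ob/ob FH replicate 3) and Srxn1 (-0.77 to 0.20) for the difference, and Keap1 (-0.13 to 0.055, or 0.017 without fasted vector replicate 1) between the vector groups. With the replicate number as a block the members called stayed at 4, 5, 1 and 2, and all genes called were 8207, 8073, 1136 and 2445. The numbers do not pair the libraries: deviations of same-numbered FH and vector libraries correlated from -0.08 to 0.009 in fasted and from -0.111 to 0.089 in ob/ob livers, and 0 of 3 vector libraries in either model correlated best with their own number.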

Other observations

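Members did not form a single pattern across libraries. Over the 45 pairs of members, the median Pearson correlation of log2 CPM over the 12 libraries was 0.43, from -0.32 (Srxn1 with Osgin1) to 0.97 (Txnrd1 with Ephx1). These points share depth, scaling and group, and the values are a description. After group means were taken out, Nqo1 and Srxn1 still correlated at 0.93, with ob/ob vector replicate 2 low in both.

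Tested genes were ranked by likeness to a member, leaving out members, genes with a low mean CPM and gene models without a name. Of these, the genes whose levels were most like those of Keap1 over the 12 libraries were Tmbim4 (r = 0.99), Samm50 (0.99) and Dad1 (0.99). For Nfe2l2 they were Serpina7 (0.97), Wwtr1 (0.96) and Spc25 (0.95). For Nqo1 they were Pars2 (0.98), Gpc1 (0.97) and Rgs16 (0.96).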
